A study of Mus musculus with 32 samples.

Results

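The IFIT, IFITM and ISG15 genes encode proteins of the cell's defence against viruses, and 9 of them were followed here out of 55487 gene identifiers: Isg15, Ifit1, Ifit2, Ifit3, Ifit3b, Ifitm1, Ifitm2, Ifitm3 and Ifitm6. They were chosen by symbol, through the mouse GENCODE annotation and with version numbers ignored. The RNA came from progenitors of mouse fetal liver, held in an immature state by ER-HOXB8, in which a homeobox protein that blocks myeloid maturation is put under the control of estrogen. Wild-type cells here are the line hi-77+/+. Mutant cells are the line hi-77-/- with the genotype Gata2 -77-/-, which lacks the distal enhancer named -77 upstream of Gata2 on both alleles. Cells of both lines grew with stem cell factor conditioned medium, b-estradiol and G418, and the agents were given for 4 h. Either line received vehicle, 1 ng/ml of interferon gamma (IFNg), 100 ng/ml of Pam3CSK4 (a lipopeptide made to trigger TLR1 paired with TLR2), or the combination of those doses, here called both agents. Each of the 8 groups held 4 libraries.

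Each genotype was a single immortalised line, and whether its 4 libraries per treatment came from separate cultures is not stated in the labels, so p-values reflect the spread of these libraries, which may be technical. Libraries held 44.18 to 71.42 M expected counts. Gata2, the gene next to the deleted enhancer, stood at 35.1 to 54.7 CPM (counts scaled to library size, here after TMM scaling) in the wild-type libraries and at 6.01 to 8.42 CPM in the mutant ones. All 9 fixed myeloid progenitor markers, among them Kit, Mpo and Elane, had counts in all 8 groups, with group means of 4690 to 5390 CPM in sum. Single markers differed between the vehicle groups without overlap: Elane was at 26.7 ± 2.83 CPM in wild-type and 3.16 ± 0.40 CPM in mutant cells, Mpo at 2410 and 1860 CPM, and Cd34 at 1350 and 1790 CPM. The structural RNA share, the percentage of counts in mitochondrial and small structural RNA genes, moved with treatment in wild-type cells: 23.96% ± 4.17 with vehicle against 15.9% ± 1.87 with IFNg, 14.8% ± 1.47 with Pam3CSK4 and 13.6% ± 0.61 with both (mean ± SD, n = 4). In mutant cells the group means lay between 21.1 and 27.3%.

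As background, interferons act through receptors at the cell surface and the kinases of the JAK family. The signal of IFNg mainly reaches genes through GAS sequences and that of type I interferons through ISRE sequences, which factors of the IRF family also bind. Isg15 encodes a ubiquitin-like protein that is joined to other proteins. The IFIT proteins are cytoplasmic and bind viral or other RNA and each other. The IFITM proteins sit in membranes and hinder the fusion of enveloped viruses with the cell, and stem and progenitor cells are known to hold some of them without interferon.

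The promoters of these genes differ in such motifs, and stretches are shown for the genes with an ISRE match, beside 1 with a GAS match from the first window of Ifit2. RefSeq windows of 300 bases (GRCm38.p6, 250 bases before the start site and 50 from it on) were matched for all 9 genes, with a second start for Ifit2. Both strands were searched for the ISRE core (GAAA, any 2 bases, GAAA), which 3.44% of 32851 such windows hold, and for the GAS forms, TTC and GAA with 3 bases (8.3% of windows) or 4 bases (6.95%) between them. Matches are in capitals, each stretch reads 5′ to 3′ on the strand of its gene, and a match is a description of letters and not a tested site.
Isg15, chr4:156200849-156200948, minus strand: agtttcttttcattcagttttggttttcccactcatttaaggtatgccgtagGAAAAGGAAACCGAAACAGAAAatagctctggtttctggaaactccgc
Ifit1, chr19:34640759-34640858, plus strand: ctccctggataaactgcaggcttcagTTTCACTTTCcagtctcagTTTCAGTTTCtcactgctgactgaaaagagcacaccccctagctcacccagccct
Ifit3, chr19:34583364-34583423, plus strand: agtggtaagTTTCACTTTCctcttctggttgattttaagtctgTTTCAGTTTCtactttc
Ifit3b, chr19:34607760-34607819, plus strand: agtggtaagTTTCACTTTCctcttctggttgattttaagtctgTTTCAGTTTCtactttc
Ifit2, chr19:34550444-34550503, plus strand: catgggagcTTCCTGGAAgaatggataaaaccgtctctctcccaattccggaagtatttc
Ifitm2, chr7:140955992-140956051, minus strand: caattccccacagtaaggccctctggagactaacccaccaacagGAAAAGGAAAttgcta
Ifitm3, chr7:141010716-141010742, minus strand: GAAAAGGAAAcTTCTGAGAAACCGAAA

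The Isg15 window held 3 overlapping matches to the ISRE core, from 78 to 57 bases upstream of the start site. Ifit1 held 2 upstream matches, and so did Ifit3 and Ifit3b, whose printed stretches are the same letter for letter. Ifitm2 held 1. Ifitm3 held 2, both downstream of its RefSeq start site, the second of which overlaps a GAS match. No ISRE core match was found in the windows of Ifit2, Ifitm1 or Ifitm6. Ifit2 had a GAS match in each of its 2 windows, Ifitm6 had 1, and Ifitm1 had none of the 3 forms.

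**Figure D1:**
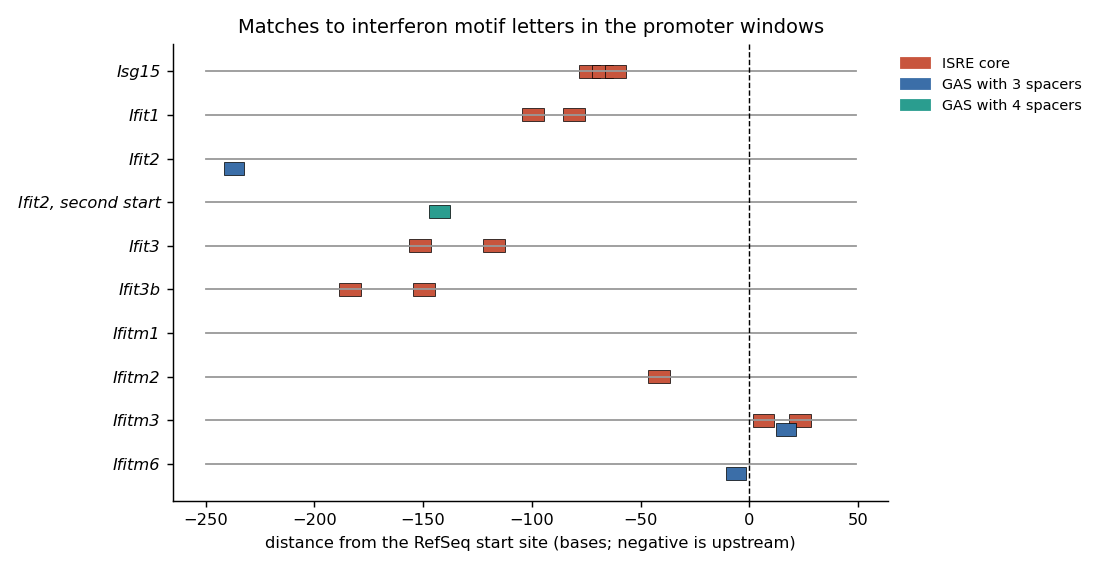
Positions of motif matches (boxes) along the promoter windows of the 9 genes (grey lines), as distance in bases from the RefSeq start site (dashed line); red is the ISRE core, blue and green are the GAS forms, drawn below the line. The ISRE matches of Isg15, Ifit1, Ifit3, Ifit3b and Ifitm2 lie upstream of the start site, those of Ifitm3 downstream, and Ifitm1 has no match.

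Of the 9 genes, 8 passed the filter on low counts and were tested with edgeR among 14869 genes. Ifit3b, with 24 counts in 11 of 32 libraries, did not pass. Ifit3, with 199 counts in all, passed through the mutant group with both agents, where it was high, so counts over the 8 tested genes are descriptions. Transcripts of Ifit3 and Ifit3b are 97.8% identical over 1700 aligned positions, so their reads are hard to separate, and both had counts that were not whole in 6 libraries. Ifitm2 shares 1101 bases with the gene model Gm45717 on the same strand and had counts that were not whole in 27 libraries. Pairs of the 4 IFITM transcripts were 65.9 to 73.2% identical where they aligned.

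**Figure D2:**
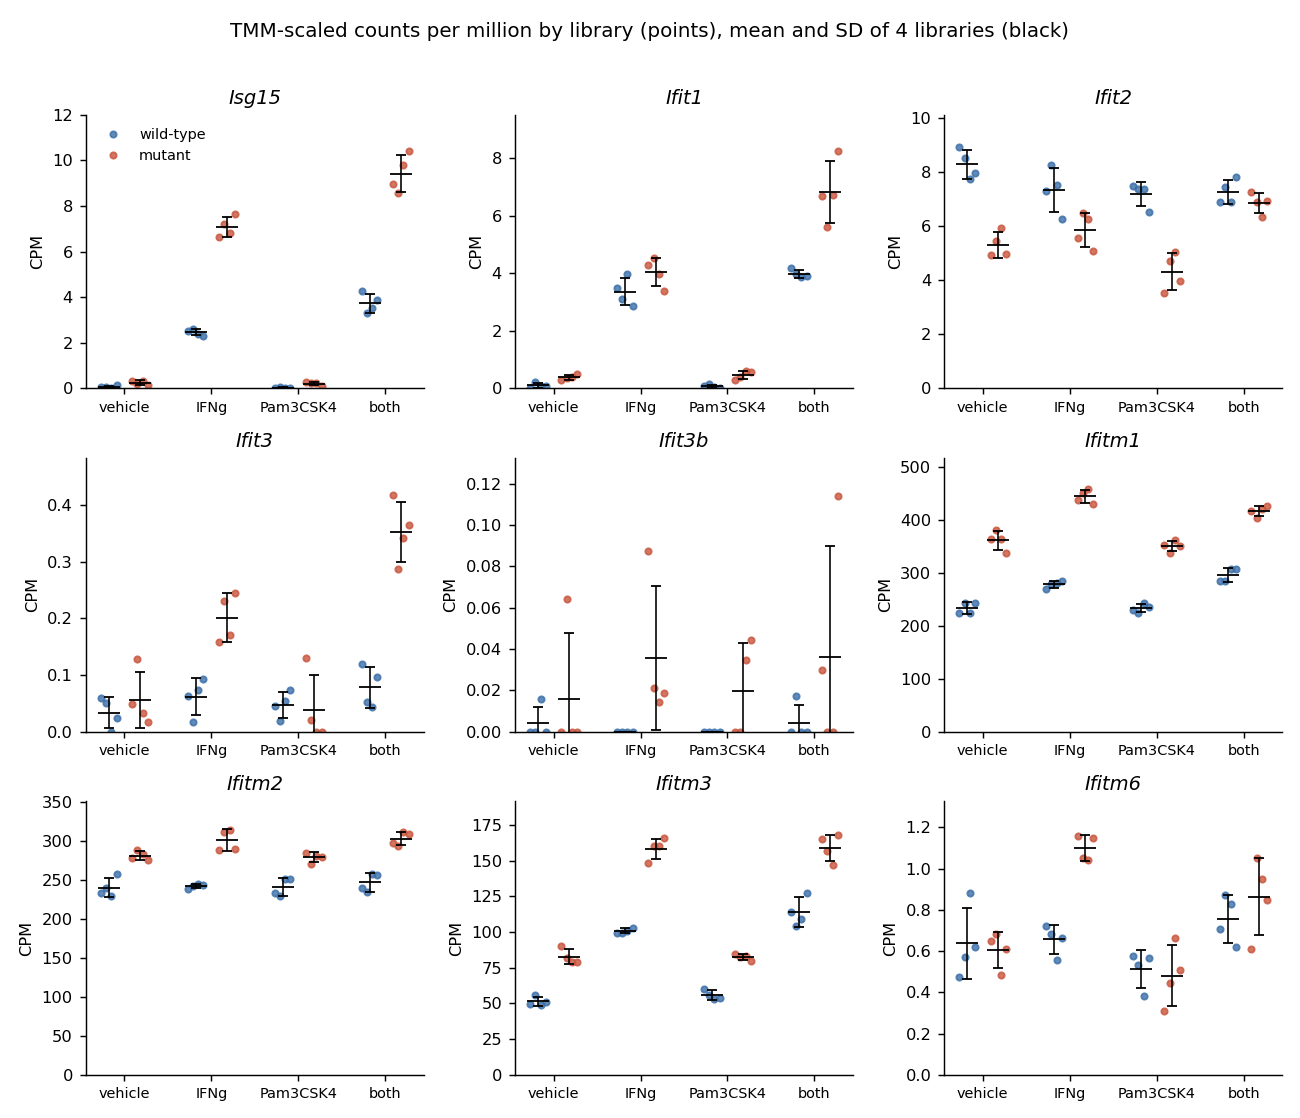
CPM after TMM scaling of the 9 genes in wild-type (blue) and mutant (red) libraries under the 4 treatments; points are libraries, black marks the mean and SD of 4 libraries, and each panel has its own axis from 0. Isg15 and Ifit1 were near 0 without IFNg, Ifit2 was lower in mutant cells with vehicle, and Ifitm1, Ifitm2 and Ifitm3 were at 49.0 CPM or more in every library.

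In the absence of any agent, mutant cells held more RNA than wild-type cells from 5 of the 8 tested genes (Isg15, Ifit1, Ifitm1, Ifitm2 and Ifitm3) and less from Ifit2, while Ifit3 and Ifitm6 did not pass the test. Of all genes tested, 24.4% were higher and 29.3% lower in this comparison. The median change was 0.64 on the log2 scale over the 8 genes and -0.01 over all genes. In bulk RNA, a change in the share of cells that express a gene and a change in RNA per cell cannot be told apart.

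Isg15 (ENSMUSG00000035692.7, mm10 chromosome 4, 156199424 to 156200818) was barely detected in wild-type vehicle libraries, at 0.0591, 0.0337, 0 and 0.143 CPM, or 11 counts in all. Mutant vehicle libraries held 0.325, 0.192, 0.333 and 0.145 CPM, or 58 counts. The groups did not overlap, but the lowest mutant library and the highest wild-type library lay side by side. The log2 difference was 2.23 ± 0.44 (SE; edgeR adjusted p = 5.7e-05), a 4.71-fold higher level in mutant cells. It depended in size on the wild-type library 4, without which it was 3.02 ± 0.50 (edgeR adjusted p = 4.3e-06), and on libraries 1 and 4 together, without which it was 3.77 ± 0.63.

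Ifit1 (ENSMUSG00000034459.8, chromosome 19, 34640871 to 34650009), whose protein binds RNA that lacks the methyl marks of the host cap, was found at 0.0197, 0.202, 0.0641 and 0.0953 CPM in wild-type vehicle libraries. In mutant vehicle libraries it was found at 0.276, 0.342, 0.383 and 0.498 CPM, above every wild-type library. The log2 difference was 1.92 ± 0.38 (edgeR adjusted p = 5.9e-05), and 2.65 ± 0.44 without wild-type library 2, the highest of its group.

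Ifit2 (ENSMUSG00000045932.12, chromosome 19, 34550694 to 34576419), which binds RNA rich in adenine and uracil, moved the other way. Wild-type vehicle libraries held 8.95, 8.52, 7.77 and 7.96 CPM, and mutant ones 4.92, 5.47, 5.94 and 4.96 CPM. The mutant level was lower by 1.56-fold with no overlap (log2 -0.64 ± 0.09, edgeR adjusted p = 4.6e-07). Ifit2 was therefore the IFIT gene with the most counts at rest in both lines, and the one lower in the mutant. For Ifit3 (chromosome 19, 34583531 to 34588731), whose human counterpart binds and stabilises IFIT1, the vehicle groups held 7 and 12 counts in all and overlapped.

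The IFITM genes lie side by side on chromosome 7. Ifitm1 (ENSMUSG00000025491.14, 140967221 to 140969825) stood at 224, 242, 223 and 242 CPM in wild-type and at 363, 380, 364 and 337 CPM in mutant vehicle libraries, a rise of 0.63 ± 0.04 on the log2 scale (edgeR adjusted p = 1.1e-16). Ifitm3 (ENSMUSG00000025492.6, 141009586 to 141010770), the member best known for blocking influenza virus in endosomes, stood at 49.6, 55.7, 49.0 and 51.2 CPM against 90.1, 82.1, 79.2 and 78.9 CPM. Its difference was 0.68 ± 0.05 (edgeR adjusted p = 4.1e-13).
Ifitm2 (140954837 to 140955987) differed less, at 230 to 258 CPM against 276 to 289 CPM and by 0.23 ± 0.04 (edgeR adjusted p = 4.3e-06). In none of these 3 did the genotypes overlap. Ifitm6 (141015699 to 141017924), was low in both lines, at 0.637 ± 0.174 CPM in wild-type and 0.606 ± 0.088 CPM in mutant libraries (mean ± SD, n = 4), and its difference of -0.09 had a 95% interval of -0.52 to 0.35 on the log2 scale.

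Markers of other cells also differed between the vehicle groups. The 5 erythroid markers summed to 71.3 to 83.7 CPM in wild-type and 4.51 to 4.98 CPM in mutant libraries. Of 7 macrophage markers 6, among them C1qa and Marco, had no counts in either vehicle group, and the other, Adgre1, was at 20.9 CPM in wild-type and 6.01 CPM in mutant libraries. The plasmacytoid dendritic cell markers Siglech and Klk1 had no counts in either vehicle group, while the list summed to 0.0369 CPM in wild-type and 0.537 CPM in mutant libraries, nearly all from Pacsin1. The 8 stromal and endothelial markers summed to 33.5 to 42.2 CPM in wild-type and 17.2 to 18.2 CPM in mutant libraries, with Dcn at 0 in both, and the 7 T and NK cell markers to 6.54 to 7.37 and 4.83 to 5.81 CPM, with Cd3e, Ncr1 and Trbc2 at 0 in both. The part of such cells in the results was not tested.

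**Figure D3:**
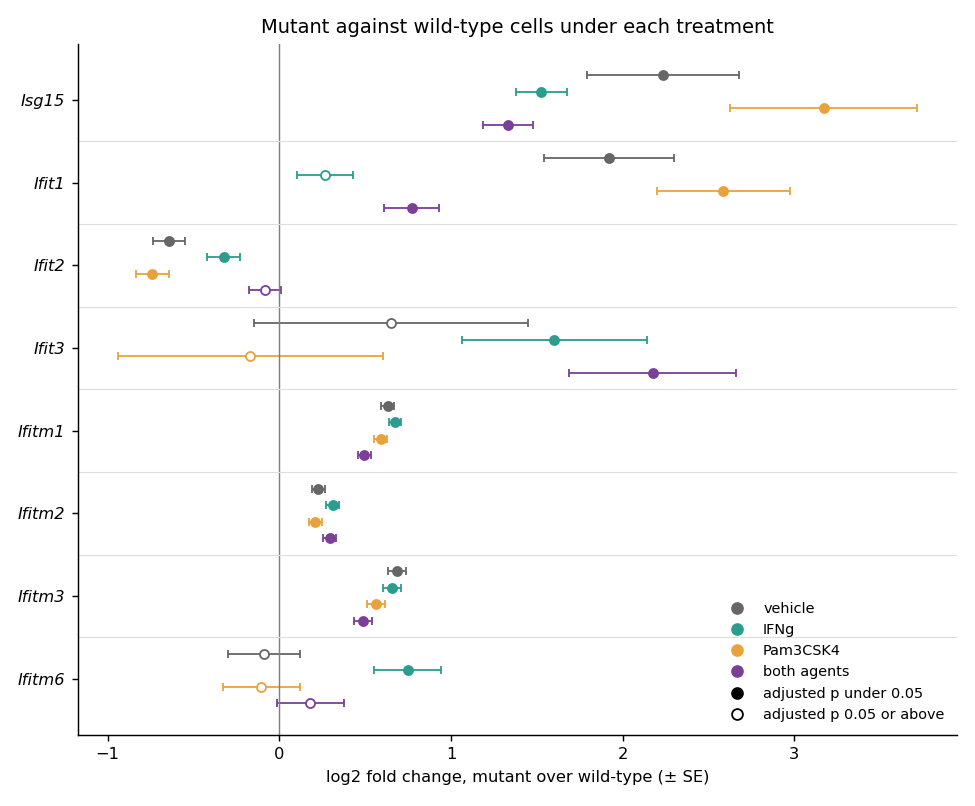
Log2 fold change of mutant over wild-type cells (± SE of the edgeR model) for the 8 tested genes under each treatment; filled points have an adjusted p under 0.05. Isg15, Ifitm1, Ifitm2 and Ifitm3 lie to the right of 0 under all 4 treatments, and Ifit2 lies to the left with vehicle, IFNg and Pam3CSK4.

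The comparison of genotypes under each agent used separate libraries. With IFNg, 6 of the 8 genes were higher in mutant cells (25.7% of all genes) and 1 was lower (27.4%). With Pam3CSK4 5 were higher (32.1%) and 1 lower (33.5%), and with both agents 6 were higher, Ifit3 among them (30.5%) and 0 lower (29.7%). Isg15, Ifitm1, Ifitm2 and Ifitm3 were higher under all 4 treatments. Isg15 differed by 1.53 ± 0.15 under IFNg, 3.17 ± 0.55 under Pam3CSK4 and 1.33 ± 0.14 under both agents (edgeR adjusted p = 8.6e-11, 5.1e-06 and 8.1e-10). With Pam3CSK4 that value rested on 5 wild-type counts, and it was 3.99 without wild-type library 2. Over the 4 treatments the difference of Ifitm1 ranged from 0.49 to 0.67, that of Ifitm3 from 0.49 to 0.68 and that of Ifitm2 from 0.21 to 0.31 on the log2 scale. With a covariate for the structural RNA share the Pam3CSK4 difference of Ifitm2 was 0.13 ± 0.06 and no longer passed (edgeR adjusted p = 0.06).

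For the other 4 tested genes the genotype difference passed under some treatments and not under others, which is no test of a change between treatments. Ifit1 differed by 2.59 ± 0.39 with Pam3CSK4 and 0.77 ± 0.16 with both agents, but with IFNg the groups overlapped and the difference of 0.27 did not pass (edgeR adjusted p = 0.17, 95% interval -0.07 to 0.61). With a covariate for the structural RNA share the both-agent difference was 0.45 ± 0.22 (edgeR adjusted p = 0.092). Ifit2 was lower in mutant cells by 0.32 ± 0.09 with IFNg and 0.74 ± 0.10 with Pam3CSK4, while with both agents the groups overlapped and the difference was -0.08 (95% interval -0.27 to 0.11).
Ifit3 was higher in mutant cells by 1.60 ± 0.54 with IFNg (edgeR adjusted p = 0.012) and by 2.18 ± 0.49 with both agents, a value given as a description because the mutant group with both agents admitted the gene to the test. Its libraries with both agents held 28, 19, 18 and 16 counts in mutant against 7, 3, 3 and 5 in wild-type cells. With Pam3CSK4 its difference was -0.17 ± 0.77, and -2.48 ± 1.06 (edgeR adjusted p = 0.041) without mutant library 1, which held 8 of the group's 9 counts. Ifitm6 was higher in mutant cells with IFNg, at 1.16, 1.05, 1.04 and 1.15 CPM against 0.722, 0.685, 0.559 and 0.664 CPM (log2 0.75 ± 0.19, edgeR adjusted p = 0.0015).

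IFNg raised 4 of the 8 genes in wild-type cells (17.8% of all genes rose) and 6 in mutant cells (18.3%), and lowered 0 (17.6 and 14.9% of all genes fell). The question was which of these genes a 4 h exposure to IFNg reached in each line. Isg15, Ifit1, Ifitm3 and Ifitm1 rose in both lines, while Ifit3 and Ifitm6 passed in mutant cells and Ifit2 and Ifitm2 in neither. Median changes were 0.59 in wild-type and 0.90 in mutant cells, against -0.01 for all genes in each line.

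Isg15 went to 2.53, 2.62, 2.38 and 2.30 CPM in wild-type and to 6.63, 7.19, 6.81 and 7.65 CPM in mutant cells with IFNg. Every library with IFNg was far above every vehicle library, and every mutant library above every wild-type one. The mutant rise was 4.80 ± 0.20 on the log2 scale, or 27.9-fold (edgeR adjusted p = 4.7e-20). In wild-type cells the fold was 45.6, over a vehicle group of 11 counts. Its log2 value of 5.51 was 6.30 ± 0.33 without vehicle library 4 and 7.04 ± 0.41 without vehicle libraries 1 and 4. The difference of the responses (mutant minus wild-type) was -0.71 ± 0.48, with a 95% interval of -1.71 to 0.29. It did not pass the test (edgeR adjusted p = 0.55).

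Ifit1 went to 3.48, 3.11, 3.96 and 2.88 CPM in wild-type and to 4.28, 4.52, 3.99 and 3.38 CPM in mutant cells. Levels with IFNg thus overlapped between lines that did not overlap with vehicle. The rise was 5.07 ± 0.28 in wild-type cells (33.6-fold, edgeR adjusted p = 1.9e-16) and 3.42 ± 0.21 in mutant cells (10.7-fold, edgeR adjusted p = 5.1e-15). The wild-type rise was 5.80 without vehicle library 2. The difference of the responses, -1.65 ± 0.42, passed the test (edgeR adjusted p = 0.033), as did 0.82% of all genes in this direction, but several other fits did not hold it. It was -2.38 ± 0.47 without wild-type vehicle library 2. It had an adjusted p of 0.05 with a replicate block (-1.65), 0.072 when the 4 groups were fitted alone and 0.18 without wild-type vehicle libraries 1 and 4, and it ranged from 0.052 to 0.11 without any single one of wild-type vehicle libraries 1, 3 or 4, wild-type IFNg library 3, mutant vehicle libraries 3 or 4, or mutant IFNg library 1.

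Ifitm3 rose in both lines, to 99.3, 99.2, 101 and 103 CPM in wild-type and 148, 160, 160 and 166 CPM in mutant cells. The log2 rise was 0.97 ± 0.05 in wild-type and 0.94 ± 0.05 in mutant cells (edgeR adjusted p = 2.2e-16 and 2.3e-16), and the difference of the responses was -0.03 with a 95% interval of -0.18 to 0.12. Ifitm1 rose by 0.26 ± 0.04 and 0.30 ± 0.04 (edgeR adjusted p = 1.1e-06 and 4.5e-08). The Ifitm1 groups with IFNg, at 270 to 285 CPM in wild-type and 430 to 458 CPM in mutant cells, did not overlap their vehicle groups.

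Ifit3 and Ifitm6 rose with IFNg in mutant cells by 1.88 ± 0.57 (edgeR adjusted p = 0.0096) and 0.86 ± 0.20 (edgeR adjusted p = 0.00075). In wild-type cells their values were 0.92 ± 0.75 and 0.03 ± 0.21. For neither gene did the difference of the responses pass the test (edgeR adjusted p = 0.75 for Ifit3 and 0.15 for Ifitm6). The mutant rise of Ifit3 was 2.53 ± 0.65 without mutant vehicle library 2, which held 6 of 12 counts. Summed with Ifit3b, its mutant rise was 1.79 ± 0.48 (edgeR adjusted p = 0.0036).
Ifit2, with IFNg at 7.31, 8.26, 7.53 and 6.29 CPM in wild-type and 5.56, 6.49, 6.27 and 5.10 CPM in mutant cells, changed by -0.18 (95% interval -0.37 to 0.01) and 0.14 (-0.06 to 0.34). Ifitm2 changed by 0.01 (-0.07 to 0.09) in wild-type and 0.10 (0.02 to 0.17, edgeR adjusted p = 0.05) in mutant cells, which fell just short of the threshold and passed with a replicate block (0.10, edgeR adjusted p = 0.04), with the covariate for structural RNA (0.13, edgeR adjusted p = 0.011) and when mutant IFNg library 1 or 4 or mutant vehicle library 2 was left out.

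**Figure D4:**
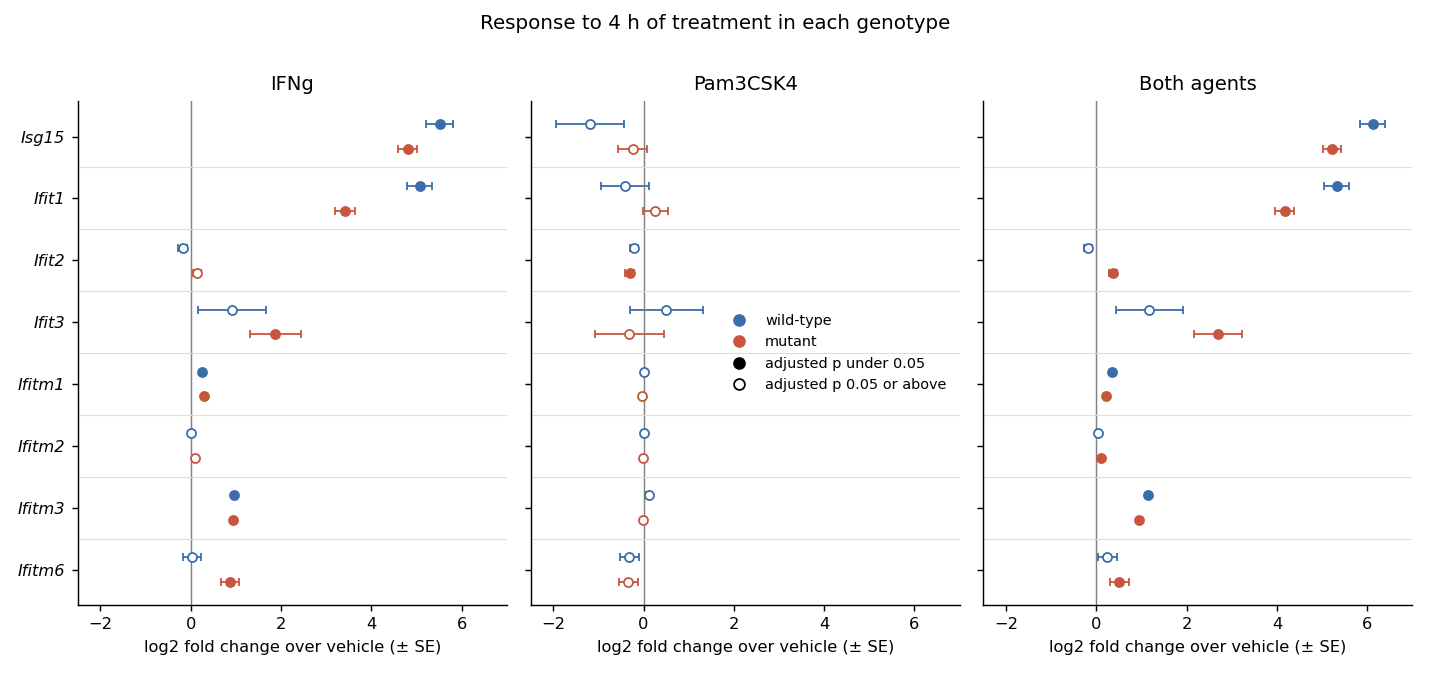
Log2 fold change over vehicle (± SE of the edgeR model) of the 8 tested genes with IFNg, Pam3CSK4 or both agents, in wild-type (blue) and mutant (red) cells; filled points have an adjusted p under 0.05. Isg15 and Ifit1 lie furthest to the right with IFNg and with both agents, and with Pam3CSK4 alone the filled point is Ifit2 in mutant cells.

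The structural RNA share of wild-type libraries fell from vehicle to IFNg as given above, and with that share as a covariate the same 4 genes passed in wild-type cells (Isg15 5.61 ± 0.33, Ifit1 5.33 ± 0.30, Ifitm3 0.90 ± 0.07, Ifitm1 0.30 ± 0.04). The plasmacytoid dendritic cell list summed to 0.465 to 0.765 CPM in wild-type and 2.04 to 2.51 CPM in mutant cells with IFNg, nearly all from Pacsin1. Siglech and Klk1 had no counts in wild-type cells with IFNg, and Klk1 had none in mutant cells. In wild-type cells with IFNg the erythroid sum was 45.6 to 56.1 CPM and the stromal and endothelial sum 28.8 to 30.9 CPM, both below the vehicle ranges given above. The part of such cells in the results was not tested.

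Pam3CSK4 alone left Ifitm1, Ifitm2 and Ifitm3 near their vehicle levels, while low counts left wide intervals for Isg15, Ifit1 and Ifit3. The wild-type log2 change was -1.18 for Isg15 (95% interval -2.72 to 0.36), -0.41 for Ifit1 (-1.51 to 0.69) and 0.51 for Ifit3 (-1.16 to 2.17). In wild-type cells 0 of the 8 passed in edgeR and 0 in DESeq2, with 2 (Ifit2 and Ifitm3) at an unadjusted p under 0.05, while 10.4% of all genes rose and 11.7% fell. Isg15 was at 0.0148, 0.0548, 0 and 0.0182 CPM and Ifit1 at 0.089, 0.146, 0.0364 and 0.0182 CPM, within the vehicle range or below it. Without wild-type vehicle library 2, Ifitm3 passed at 0.16 ± 0.06 (edgeR adjusted p = 0.039). In mutant cells 0 rose (11.5% of all genes) and 1 fell (12.8%): Ifit2 was at 3.54, 4.72, 5.04 and 3.96 CPM, a fall of 0.30 ± 0.10 (edgeR adjusted p = 0.021). That fall no longer passed without mutant vehicle library 3 (-0.24), Pam3CSK4 library 1 (-0.21) or Pam3CSK4 library 4 (-0.27). The difference of the Pam3CSK4 responses between lines passed for 0 of the 8 genes in edgeR and in DESeq2, and 0 were at an unadjusted p under 0.05, beside 14.3% of all genes higher and 12.3% lower.

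With both agents, 4 of the 8 genes rose in wild-type cells (21.2% of all genes) and 8 in mutant cells (23.7%), Ifit3 among them, and 0 fell (22.4 and 20.1%). Isg15 reached its highest levels, at 8.95, 8.57, 9.78 and 10.4 CPM in mutant cells against 4.25, 3.29, 3.53 and 3.88 CPM in wild-type cells. Its rise over vehicle was 5.22 ± 0.20 in mutant and 6.12 ± 0.28 in wild-type cells, the latter 6.90 without wild-type vehicle library 4 and 7.65 without libraries 1 and 4. Ifit1 reached 6.71, 5.61, 6.73 and 8.25 CPM in mutant cells, above all 4 wild-type libraries at 4.20, 3.98, 3.87 and 3.90 CPM. Its rise was 4.17 ± 0.21 in mutant and 5.32 ± 0.27 in wild-type cells, the latter 6.05 without wild-type vehicle library 2.

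The Ifit3 value in mutant cells was 2.70 ± 0.53, or 3.35 without mutant vehicle library 2, and is a description for the same reason. Ifitm3 rose by 1.14 ± 0.05 in wild-type and 0.95 ± 0.05 in mutant cells, and Ifitm1 by 0.34 ± 0.04 and 0.21 ± 0.04. The mutant rises of Ifitm2 (0.11 ± 0.04, edgeR adjusted p = 0.021) and Ifitm6 (0.51 ± 0.20, edgeR adjusted p = 0.039) passed by a small margin. Leaving out any single one of mutant vehicle libraries 1 or 4 or both-agent libraries 1, 3 or 4 gave Ifitm2 an adjusted p of 0.052 to 0.069, and any one of vehicle libraries 3 or 4 or both-agent libraries 2, 3 or 4 gave Ifitm6 one of 0.057 to 0.16. DESeq2 called 6 of the 8 in mutant cells, without these genes, and in the fit with a block for the replicate number 7 of the 8 passed, without Ifitm6 (edgeR adjusted p = 0.05).

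Ifit2 responded to the pair of agents differently in the 2 lines. With both agents wild-type libraries held 6.91, 7.45, 6.91 and 7.83 CPM and mutant ones 7.26, 6.89, 6.36 and 6.95 CPM, so that the lines overlapped. The change from vehicle was -0.19 ± 0.09 in wild-type (edgeR adjusted p = 0.096) and 0.37 ± 0.10 in mutant cells (edgeR adjusted p = 0.0016). The difference of the responses was 0.56 ± 0.13 (edgeR adjusted p = 0.0034) and passed in all 23 alternative fits, with values of 0.49 to 0.62. It was the 1 member of 8 that passed in this comparison, beside 8.8% of all genes higher and 6.99% lower. Ifit1, Ifitm1 and Ifitm3 had differences of -1.15, -0.14 and -0.20 with adjusted p of 0.059, 0.069 and 0.066.
These 3 passed in DESeq2 (adjusted p of 0.02, 0.035 and 0.046) and without some single libraries: Ifit1 without wild-type vehicle library 2 (-1.88), mutant vehicle library 1 (-1.28) or mutant both-agent library 4 (-1.25), Ifitm1 without wild-type vehicle libraries 2 or 4, wild-type both-agent libraries 1 or 2, mutant vehicle library 4 or mutant both-agent library 1 (edgeR adjusted p = 0.021 to 0.05) and Ifitm3 without wild-type vehicle library 2, wild-type both-agent library 2 or mutant both-agent library 1 (-0.24 to -0.26). Isg15 had a difference of -0.90 ± 0.48 (edgeR adjusted p = 0.21), or -1.69 ± 0.56 (edgeR adjusted p = 0.043) without wild-type vehicle library 4.

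Adding Pam3CSK4 to IFNg raised Isg15 and Ifitm3 in wild-type cells (2 of 8, beside 4.41% of all genes higher and 2.39% lower) and Isg15 and Ifit1 in mutant cells (2 of 8, beside 9.33% higher and 7.75% lower). In wild-type cells Isg15 rose by 0.61 ± 0.15 (edgeR adjusted p = 0.011), or by 0.54 ± 0.16 (edgeR adjusted p = 0.053) without both-agent library 1. Ifitm3 rose by 0.18 ± 0.05 (edgeR adjusted p = 0.036), which no longer passed without IFNg libraries 1, 2 or 3 or both-agent libraries 1 or 4 (0.12 to 0.18). In mutant cells Ifit1 rose by 0.75 ± 0.16 (edgeR adjusted p = 0.00077) with no overlap between groups. The mutant rise of Isg15 was 0.41 ± 0.14 (edgeR adjusted p = 0.037), and it no longer passed without IFNg libraries 1, 2 or 3 or both-agent libraries 1, 3 or 4 (0.36 to 0.43) or with a replicate block (0.41, edgeR adjusted p = 0.05).

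Whether both agents gave more or less than their log2 responses added together was tested in each line. In wild-type cells 0 of 8 genes passed in edgeR and 0 in DESeq2, with Isg15 at an unadjusted p under 0.05 (1.79 ± 0.77), beside 0.343% of all genes higher and 0.249% lower. Without wild-type vehicle library 3, where it had no counts, Isg15 passed at 2.26 ± 0.70 (edgeR adjusted p = 0.043). In mutant cells 1 of 8 passed, beside 1.39% higher and 0.471% lower: Ifit2 stood 0.53 ± 0.14 above the sum of its fall with Pam3CSK4 and its value with IFNg (edgeR adjusted p = 0.028). It no longer passed when the 4 mutant groups were fitted alone or when any of 7 single mutant libraries was left out (vehicle 2 or 3, IFNg 1 or 4, Pam3CSK4 1 or 4, both agents 1), with values from 0.44.

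Per length, Ifitm1, Ifitm2 and Ifitm3 were far above the other genes, Ifitm6 included. In TPM, the authors' length-corrected unit, used here to rank genes within a group, Ifitm1 and Ifitm2 came first and second and Ifitm3 the third in all 8 groups. In wild-type vehicle libraries these were at 187 ± 36.0, 179 ± 31.4 and 36.7 ± 8.58 TPM (mean ± SD, n = 4). The ranges of Ifitm1 and Ifitm2 overlapped in wild-type cells with vehicle, IFNg or Pam3CSK4 and were apart in wild-type cells with both agents and in all mutant groups. The fourth place went to Isg15 in the 4 groups with IFNg (2.48 TPM in wild-type and 5.73 TPM in mutant cells with IFNg alone) and to Ifit2 in the 4 groups without it (0.73 TPM in wild-type and 0.453 TPM in mutant vehicle libraries). The ranges of Ifit2 and Ifitm6, the next gene, overlapped in 3 of those 4 groups and were apart in wild-type cells with Pam3CSK4. Ifit3b was last in every group, at 0 to 0.0075 TPM.

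Within the IFIT family the share of Ifit1 rose with IFNg and that of Ifit2 fell. Ifit2 made up 97.8% ± 1.4 of the family's TPM in wild-type vehicle libraries and 59.1% ± 3.63 with IFNg, and 88.3% ± 2.35 and 47.4% ± 2.16 in mutant cells. Ifit1 went from 1.55% ± 1.31 to 39.7% ± 3.31 in wild-type and from 9.12% ± 2.58 to 48.2% ± 2.01 in mutant cells, and with both agents to 56.1% ± 3.48 in mutant cells. Its wild-type vehicle share rested on levels of 0 to 0.03 TPM. The ratio of Ifit1 to Ifit2 in TPM was 0.676 ± 0.095 in wild-type and 1.02 ± 0.086 in mutant libraries with IFNg. In the IFITM family the share of Ifitm3 rose from 9.03% ± 0.44 to 14.9% ± 0.15 in wild-type and from 10.2% ± 0.60 to 15.7% ± 0.72 in mutant cells with IFNg, with no overlap. The ratio of Ifitm1 to Ifitm2 was 1.04 ± 0.02 in wild-type and 1.45 ± 0.06 in mutant vehicle libraries.

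**Figure D5:**
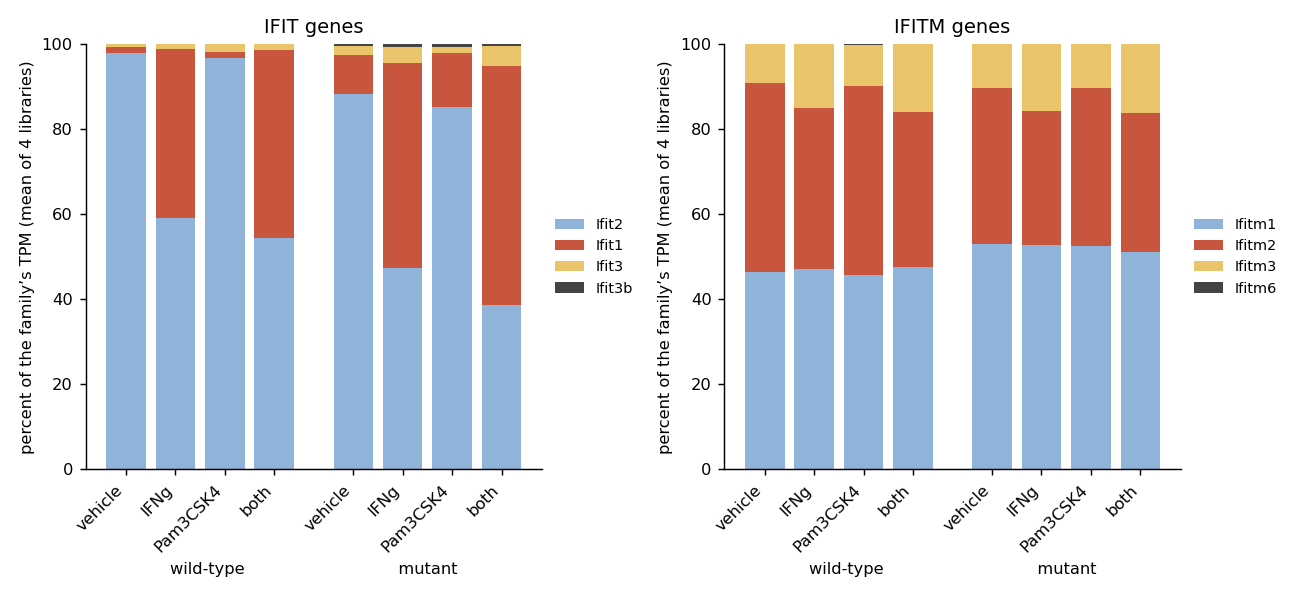
Share of each gene in the summed TPM of its family (stacked bars, mean of 4 libraries, from 0 to 100%) in the 4 wild-type and 4 mutant groups, IFIT genes on the left and IFITM genes on the right. The Ifit1 share was 1.55% in wild-type vehicle libraries and 56.1% in mutant libraries with both agents, and the Ifitm3 share was larger in each group with IFNg than in its vehicle group.

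The scales disagreed on absolute change. From vehicle to IFNg the median of all tested genes shifted by -0.01 in TMM-scaled CPM, 0.14 in CPM on total counts and 0.58 in TPM in wild-type cells, and by 0.29 in TPM in mutant cells. The wild-type log2 ratio of Ifit2 was -0.18 in TMM-scaled CPM and -0.02 in CPM on total counts but 0.41 in TPM, where it lay below the shift of all genes, and that of Ifitm2 was 0.01, 0.17 and 0.60. Directions of change here rest on TMM-scaled counts.

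The genes that attach ISG15 to proteins or remove it rose with IFNg. Of 8 genes of conjugation and removal 7 were tested, and all 7 rose with IFNg and with both agents in each line. Of all genes 17.8% in wild-type and 18.3% in mutant cells rose with IFNg, and 21.2 and 23.7% with both agents. The medians with IFNg were 0.83 in wild-type and 0.69 in mutant cells. Ube2l6, the conjugating enzyme, rose by 2.88 ± 0.10 in wild-type and 3.13 ± 0.10 in mutant cells. Uba7, the activating enzyme, rose by 1.29 ± 0.06 and 0.90 ± 0.05, and Herc6, a mouse ligase for ISG15, by 0.22 ± 0.08 and 0.62 ± 0.08.
Usp18, the protease that removes ISG15 and also restrains the type I interferon receptor, rose by 4.27 ± 0.12 in wild-type and 3.51 ± 0.09 in mutant cells. The difference of the IFNg responses passed for Usp18 (-0.76 ± 0.17, edgeR adjusted p = 0.011) and Uba7 (-0.39 ± 0.08, edgeR adjusted p = 0.0031). At rest Usp18 was at 0.359 ± 0.093 CPM in wild-type and 2.33 ± 0.14 CPM in mutant cells. With Pam3CSK4 3 of the 7 rose and 1 fell in wild-type cells (10.4 and 11.7% of all genes), and 0 rose and 2 (Uba7 and Usp18) fell in mutant cells (11.5 and 12.8%). Between lines at rest 3 were higher and 1 lower in the mutant (24.4 and 29.3% of all genes), with a median of 0.05.

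A list of 17 genes held the interferon receptors and their transcription factors, with kinases of the JAK family and inhibitors of JAK signalling. All 17 were tested. With IFNg 10 rose and 5 fell in wild-type cells (17.8 and 17.6% of all genes) and 9 rose and 4 fell in mutant cells (18.3 and 14.9%). Irf9 rose by 2.69 ± 0.06 and 2.14 ± 0.06, and Irf7, a factor that sustains antiviral genes, by 3.79 ± 0.12 and 3.08 ± 0.11. The receptor chain genes Ifngr1 and Ifngr2 fell in both lines, by 0.21 to 0.47. At rest 9 of the 17 were higher and 3 lower in mutant cells (24.4 and 29.3% of all genes).

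Of 24 other antiviral genes 22 were tested. With IFNg 21 rose in each line and 0 fell, beside 17.8 and 18.3% of all genes that rose, with medians of 2.36 in wild-type and 1.85 in mutant cells, and at rest 16 were higher and 1 lower in mutant cells (median 1.28, beside 24.4 and 29.3% of all genes). With Pam3CSK4 1 rose and 3 fell in wild-type cells (10.4 and 11.7% of all genes) and 3 rose and 4 fell in mutant cells (11.5 and 12.8%). The difference of the both-agent responses was positive for 2 and negative for 11 of the 22 (8.8 and 6.99% of all genes). Outside the 9 genes, 2 of 5 further family members were tested, Ifitm7 and Ifitm5. Under each of the 4 treatments, vehicle included, 1 of the 2 was lower in mutant cells (27.4 to 33.5% of all genes) and 0 higher (24.4 to 32.1%). With IFNg the lower one was Ifitm7 (-0.91 ± 0.12). With both agents 2 of the 2 rose in mutant cells (23.7% of all genes), Ifitm7 by 0.45 ± 0.13. Ifitm5 rose with IFNg in mutant cells (0.88 ± 0.33, edgeR adjusted p = 0.039).

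None of the 21 interferon ligand genes had enough counts to be tested. Their counts summed to 17 to 28 in wild-type groups and 33 to 64 in mutant groups over 4 libraries. Ifnb1, the gene of interferon beta, had 0 counts in all wild-type groups and in mutant cells with vehicle or IFNg, 6 counts in mutant cells with Pam3CSK4 and 3 with both agents. A group's 0 allows up to 3 counts over its libraries, for counting error.

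Across all 32 libraries, as a description over points that share genotype and treatment, the log2 levels of Ifit1 and Isg15 went together (Pearson r = 0.963), as did those of Ifitm3 and Isg15 (0.95) and Ifitm1 and Ifitm2 (0.936). Ifit1 and Ifit2 did not (0.009). Among the tested genes outside the 9, those most like Isg15 were Slfn5 (0.986), Gbp7 (0.985) and Parp9 (0.984), and those most like Ifit1 were Xaf1 (0.98), Gbp7 (0.978) and Irf8 (0.977). Ifitm3 was most like Ifi206 (0.988), Gm1966 (0.985) and Cmpk2 (0.981), and Ifitm1 most like Ifi203 (0.977), Chpt1 (0.976) and Ifi204 (0.973).
Ifitm2 was most like Dse (0.941), Traf4 (0.94) and Mcfd2 (0.937). The other 3 tested genes had no such close match. Ifit2 was nearest to Myo1e (0.842), H60b (0.826) and Ccnd1 (0.819). Ifit3 was nearest to Gbp10 (0.85), Gbp11 (0.833) and Noc2l (0.83), and Ifitm6 to Dtd2 (0.787), Ehd4 (0.785) and Trib2 (0.784). Ifit3 and Ifitm6 had few counts, 199 and 1288 over all libraries. The part of counting error in their lower r was not tested.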

How the data were processed

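RNA was extracted with TRIzol and sequenced from TruSeq stranded total RNA libraries with ribosomal RNA reduction, per the labels' protocols, in 32 libraries of 8 groups. The authors deposited a gene table per library with RSEM expected counts and TPM; STAR 2.5.2b, RSEM 1.3.0 and mm10 are named in the submitters' processing notes. RSEM shares reads that fit several genes, and 11.07% of nonzero counts were not whole. Symbols came from GENCODE for 55394 of 55487 identifiers. Expected counts were rounded and 40618 low genes removed with filterByExpr. edgeR 4.0.16 (TMM, quasi-likelihood F test, robust, all 32 libraries, 1 mean per group) gave 17 contrasts, with Benjamini-Hochberg adjustment over 14869 genes and a threshold of 0.05. The code was tested on simulated counts. The genes most like each member were the 3 with the highest Pearson r of log2 CPM. Same-numbered libraries of different groups had a median correlation of deviations of 0.009, against -0.003 for other numbers. No sign of pairing by number was seen, which does not exclude it, and the reported fit used no block. The members, gene lists and marker lists were chosen with earlier results of these data known. Alternatives were RLE scaling, no filter, a replicate block, the structural RNA share as covariate, the compared groups alone, libraries left out, Ifit3 and Ifit3b summed, and DESeq2. The values of 1 gene of the receptor and transcription factor list are not reported here.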

Additional observations from a re-analysis of the deposited data

Results flagged for a closer look

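Ifit2 in wild-type cells with Pam3CSK4 was 6.55 CPM in library 4, below the other 3 libraries at 7.38 to 7.49 CPM. Ifit3 in mutant cells with Pam3CSK4 was 0.13 CPM in library 1, above the other 3. Both were found among 64 groups of 4 libraries checked for a library far from the others, and chance gives about 1 such in 20 groups. The response of Ifit1 to IFNg differed between the lines by -1.65 on the log2 scale (mutant minus wild-type), and the response of Ifit2 to both agents by 0.56. The Ifit1 difference rested on 21 counts in the wild-type vehicle group and no longer passed in 10 of 23 alternative fits. The Ifit2 difference passed in all 23. The causes were not tested.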

How the results depend on the processing

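No value changed its direction past the threshold. With the structural RNA share as covariate, genes called numbered 2794 for IFNg in wild-type cells (5265 in the reported fit), 176 for Pam3CSK4 (3277), 3640 for both agents (6491), 1212 for the difference of Pam3CSK4 responses (3956), 1380 for that of both-agent responses (2347), 42 for the departure from additivity in wild-type cells (88) and 422 in mutant cells (276). Fitting the compared groups alone gave 2057 for Pam3CSK4 in wild-type cells, 127 for the difference of IFNg responses (245) and 154 for the wild-type departure. Without wild-type vehicle libraries 1 and 4 there were 648 for Pam3CSK4, 2444 for the difference of Pam3CSK4 responses and 20 for the wild-type departure. DESeq2 gave 369 for the difference of IFNg responses and 393 for the wild-type departure, for which no low-count filter gave 172. Of the 8 genes, the covariate left 1 for both agents against IFNg in wild-type cells (2), and for the difference of both-agent responses (1) it gave 3, RLE 2, no filter 2, the 2 vehicle libraries left out 2 and DESeq2 4. The difference of IFNg responses (1) had 0 with the replicate block, with the compared groups alone and without the 2 vehicle libraries, and the mutant departure (1) had 0 with the compared groups alone. With the replicate block, both agents against IFNg in mutant cells had 1 of the 8 (2), and 7 of 32 libraries correlated best with their own number. Leaving out 1 library at a time gave 2048 to 4099 genes for Pam3CSK4 in wild-type cells (0 to 1 of the 8), 577 to 1179 for both agents against IFNg in wild-type cells (0 to 2), 136 to 382 for the difference of IFNg responses (0 to 1) and 44 to 1156 for the wild-type departure (0 to 1). For the 8 genes it gave 0 to 1 for Pam3CSK4 in mutant cells, 1 to 2 for both agents against IFNg in mutant cells, 1 to 4 for the difference of both-agent responses and 0 to 1 for the mutant departure. Low counts limit Ifit3, Ifit3b and the resting levels of Isg15 and Ifit1.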
